A study of Mus musculus with 6 samples.

Results

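The Gimap family encodes GTPases of immunity-associated proteins, and its mouse genes *Gimap1*, *Gimap3*, *Gimap4*, *Gimap5*, *Gimap6*, *Gimap7*, *Gimap8* and *Gimap9* were followed in hematopoietic stem cells (HSCs) with and without a *Maea* deletion. The members were the rows of the expression table that carry these gene symbols. All 8 were found among 46959 rows, and all 8 were among the 12955 genes expressed highly enough to be tested.

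RNA was sequenced from 3 libraries of control mice and 3 libraries of MaeaCsf1r-Cre mice, which were littermates aged 8 weeks by the series' design text, whereas the study's methods give a wider range of young adult ages. Each library was made from 2000 bone marrow HSCs, sorted as lineage- Sca-1+ c-Kit+ CD150+ CD48- cells and pooled from 2 mice. MaeaCsf1r-Cre mice carry floxed *Maea* alleles and a Cre recombinase under the promoter of *Csf1r*, the receptor for macrophage colony-stimulating factor, and the study uses this line to delete *Maea* in macrophages and in HSCs. The control mice are labelled as control with no genotype. The study describes its Csf1r-Cre controls elsewhere as floxed littermates without Cre or as heterozygous floxed littermates with Cre, and which of them were sequenced is not given in the sources used here. MAEA is a subunit of an E3 ubiquitin ligase complex, and the comparison asks how the HSC transcriptome differs without it.

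GIMAP proteins bind GTP through a shared AIG1-type domain. Most sit on the membranes of organelles such as lysosomes, mitochondria, the endoplasmic reticulum or the Golgi apparatus. They are best known from lymphocytes, whose survival depends on several of them, and loss of *Gimap5* causes lymphopenia in rodents and also disturbs HSCs. The genes lie side by side in 1 cluster, which makes them a natural group in which to compare levels and variation.

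The cluster covered 123.6 kb of chromosome 6 in GRCm38 (mm10), from 48647234 to 48770851 in the GENCODE annotation. In chromosomal order it held *Gimap8*, *Gimap9*, *Gimap4*, *Gimap6*, *Gimap7*, *Gimap1*, *Gimap5* and *Gimap3*. *Gimap6* and *Gimap3* lie on the minus strand and the other 6 on the plus strand. The promoters of 5 members are shown, chosen by the place of these members in the values below. Whether promoter sequence bears on those values was not tested. *Gimap1*, *Gimap5* and *Gimap6* carried most of the family's reads, *Gimap3* had the most negative log2 fold change with all 6 libraries and the deposited scaling, and *Gimap4* was the member with a higher mean in MaeaCsf1r-Cre HSCs. Each sequence runs from 250 bases before to 50 bases after the RefSeq transcript start in GRCm38.p6, 5′ to 3′ on the strand of the gene, and capitals mark the motif AGGAAG on either strand, a core bound by ETS transcription factors.
*Gimap1*, chr6:48738797-48739096, plus strand: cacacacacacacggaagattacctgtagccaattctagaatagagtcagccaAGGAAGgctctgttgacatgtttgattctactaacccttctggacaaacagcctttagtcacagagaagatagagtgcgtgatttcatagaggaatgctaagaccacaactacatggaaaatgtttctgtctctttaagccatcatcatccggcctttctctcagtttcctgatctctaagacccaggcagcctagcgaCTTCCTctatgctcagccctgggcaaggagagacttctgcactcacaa
*Gimap5*, chr6:48745947-48746246, plus strand: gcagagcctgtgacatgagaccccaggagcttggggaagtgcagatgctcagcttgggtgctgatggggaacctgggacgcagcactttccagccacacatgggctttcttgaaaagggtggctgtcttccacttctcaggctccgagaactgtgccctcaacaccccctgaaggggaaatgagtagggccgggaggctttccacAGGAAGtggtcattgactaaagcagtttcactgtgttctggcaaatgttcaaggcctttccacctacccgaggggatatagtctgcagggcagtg
*Gimap6*, chr6:48708195-48708494, minus strand: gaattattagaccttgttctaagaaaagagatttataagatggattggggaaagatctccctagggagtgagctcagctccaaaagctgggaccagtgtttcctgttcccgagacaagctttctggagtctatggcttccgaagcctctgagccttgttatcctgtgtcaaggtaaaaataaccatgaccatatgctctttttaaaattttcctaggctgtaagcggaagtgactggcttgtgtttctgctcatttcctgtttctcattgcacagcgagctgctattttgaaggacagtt
*Gimap3*, chr6:48770802-48771101, minus strand: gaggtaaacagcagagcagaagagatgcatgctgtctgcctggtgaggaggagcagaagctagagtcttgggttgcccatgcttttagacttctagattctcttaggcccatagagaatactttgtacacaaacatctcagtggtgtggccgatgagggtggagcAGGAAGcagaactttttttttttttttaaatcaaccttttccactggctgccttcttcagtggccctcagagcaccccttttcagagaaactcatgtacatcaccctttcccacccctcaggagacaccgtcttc
*Gimap4*, chr6:48684328-48684627, plus strand: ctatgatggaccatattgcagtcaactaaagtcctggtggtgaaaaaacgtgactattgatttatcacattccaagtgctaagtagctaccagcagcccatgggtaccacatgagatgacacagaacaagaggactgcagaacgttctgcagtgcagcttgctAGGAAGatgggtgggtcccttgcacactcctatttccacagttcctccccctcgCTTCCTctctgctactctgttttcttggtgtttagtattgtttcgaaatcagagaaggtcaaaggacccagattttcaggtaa
The RefSeq table held 9 promoters for the 8 members, of which *Gimap8* had 2. AGGAAG was present in 7 of the 9, covering 7 of the 8 genes, and in 35.4% of 32851 mouse promoters of the same length. The promoter of *Gimap6* lacked it but held the related form CGGAAG, which was looked for after that sequence had been seen. CGGAAG occurred in 3 of the 8 genes, *Gimap1*, *Gimap6* and *Gimap8*, and in 16.9% of all promoters. The RUNX core TGTGGT was found for *Gimap1*, *Gimap4* and *Gimap7* and in 16.8% of all promoters, while the Ikaros core TGGGAA was found for *Gimap3* and in 25.6%. GC content ranged from 43.3% in the *Gimap6* promoter to 57.3% in that of *Gimap9*, against a median of 52.7% over all promoters. All motifs were searched on both strands. AGGAAG and CGGAAG differ in their first letter, so a place in the sequence cannot match both. A match is a run of letters and not a site shown to be bound.

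The labelled cell type was checked against its markers. All 15 HSC marker genes on the list used here were tested, among them *Kit* at 393 to 700.1 CPM (a read count scaled to the size of its library) and *Slamf1*, which encodes CD150, at 13.1 to 35.1 CPM. *Cd48*, whose protein the sort selected against, was at 33.5, 19.4 and 12.4 CPM in control and at 46.5, 22.1 and 15.8 CPM in MaeaCsf1r-Cre libraries. It was highest in the library numbered 1 of each group, where it exceeded *Slamf1*, and higher in MaeaCsf1r-Cre in all 3 same-numbered pairs (adjusted p = 0.967 from limma, 0.335 with the block). *Maea* itself was listed at 108, 116 and 123 CPM in control and at 76.9, 88.6 and 101 CPM in MaeaCsf1r-Cre libraries. All 3 MaeaCsf1r-Cre values lay below all 3 control values, and the log2 fold change was -0.39 ± 0.13 (SE), with a limma adjusted p of 0.967, or 0.218 when the replicate number was a block. Reads from outside the deleted exons would still count toward *Maea*, so this level checks the labels only in part. The scaling of the files implied depths of 32968000, 39614000 and 34233000 reads in control and 60937000, 44159000 and 44337000 reads in MaeaCsf1r-Cre libraries, so every MaeaCsf1r-Cre library was deeper than every control library. A signal of 3 reads was worth 0.0492 to 0.0910 CPM, which covers counting error only, and every member was above it in every library.

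The 8 genes together reached 257, 444 and 346 CPM in control replicates 1, 2 and 3. In MaeaCsf1r-Cre replicates 1, 2 and 3 they reached 146, 248 and 328 CPM. The means were 349 ± 93.8 and 241 ± 91.3 CPM (SD, n = 3 each), so that the MaeaCsf1r-Cre mean was 69.0% of the control mean, and the groups overlapped. Within a group the library numbered 1, in which *Cd48* was highest, had the lowest sum both times. Libraries with the same replicate number deviated together across genes, and when compared by number the MaeaCsf1r-Cre sum was 56.9% of control in the libraries numbered 1, 55.9% in those numbered 2 and 94.8% in those numbered 3. These are bulk libraries, in which fewer cells that express a gene and less RNA per cell cannot be told apart.

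**Figure D1:**
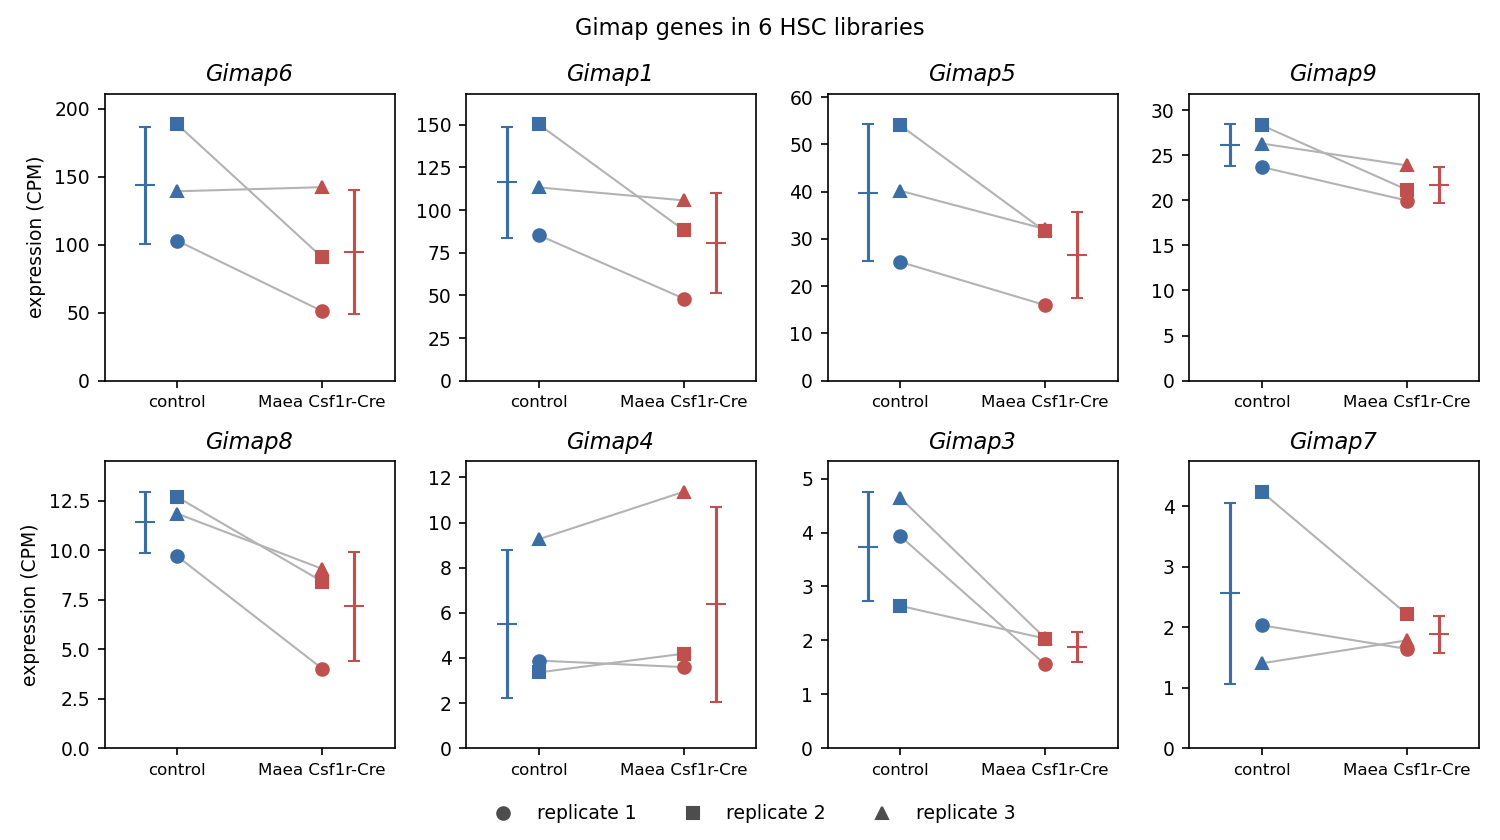
Expression of each Gimap gene in CPM on linear axes that start at 0, for 3 control (blue) and 3 MaeaCsf1r-Cre (red) HSC libraries. Marker shapes give the replicate number, grey lines join libraries with the same number, and the bars beside the points give the mean ± SD. *Gimap3* and *Gimap8* are the panels in which the groups do not overlap, and *Gimap4* is the panel in which replicate 3 stands high in both groups.

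Most of the RNA of the family came from 3 genes. *Gimap1*, *Gimap5* and *Gimap6* made up 78.9 to 88.5% of the family's CPM in a library. *Gimap6*, whose protein takes part in autophagy through an interaction with GABARAPL2, was at 103, 188 and 139 CPM in control and at 51.1, 90.6 and 142 CPM in MaeaCsf1r-Cre libraries. MaeaCsf1r-Cre replicates 1 and 2 lay below all controls, whereas replicate 3 lay within their range. The log2 fold change was -0.67 (standard error 0.36, 95% interval -1.51 to 0.17). *Gimap1*, a Golgi GTPase without which few mature B and T cells survive, was at 85.3, 150.3 and 113 CPM in control and at 48.2, 88.3 and 106 CPM in MaeaCsf1r-Cre libraries. The groups overlapped, since 2 of the 3 MaeaCsf1r-Cre libraries lay above the lowest control. The log2 fold change was -0.56 (standard error 0.31, 95% interval -1.27 to 0.16). *Gimap5*, a lysosomal GTPase that keeps lymphocytes and HSCs alive, was at 25.1, 54.0 and 40.2 CPM in control and at 16.0, 31.6 and 32.1 CPM in MaeaCsf1r-Cre libraries. Each MaeaCsf1r-Cre library was below the control library of its number, at 63.6, 58.4 and 79.8% of it, although the groups overlapped. The log2 fold change was -0.57 (standard error 0.34, 95% interval -1.35 to 0.22).

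*Gimap8* and *Gimap3* were the 2 members whose groups did not overlap with the deposited scaling, as was so, with MaeaCsf1r-Cre lower, for 6.06% of all genes. *Gimap8*, which encodes an unusually large protein with several GTPase domains, was at 9.71, 12.7 and 11.9 CPM in control and at 4.02, 8.42 and 9.07 CPM in MaeaCsf1r-Cre libraries. Its highest MaeaCsf1r-Cre value lay just below its lowest control value, and its log2 fold change was -0.66 (standard error 0.29, 95% interval -1.33 to 0.01). *Gimap3*, a paralog of *Gimap5* that influences the segregation of mitochondrial DNA, was at 3.94, 2.64 and 4.65 CPM in control and at 1.55, 2.03 and 2.04 CPM in MaeaCsf1r-Cre libraries. Its mean was 3.74 ± 1.02 CPM in control and 1.88 ± 0.278 CPM in MaeaCsf1r-Cre HSCs (SD, n = 3 each). The MaeaCsf1r-Cre mean was thus 50.1% of the control mean. On log2(CPM + 1), which understates the change of a gene this low, the fold change was -0.70 (standard error 0.24, 95% interval -1.26 to -0.15). With 0.1 added in place of 1 it was -0.93. The values of *Gimap3* were worth only 90 to 159 reads per library. *Gimap3* and *Gimap5* share a stretch of up to 140 bases of transcript, close to the read length of 150 bases, so how a part of their reads was divided is uncertain. Of their 12 values 1 came out as a whole number of reads. This was not particular to the pair, since *Gimap1* and *Gimap6* also had 1 whole value each in the 6 libraries. Neither of these shares a stretch of 50 bases with another member. With genes outside the family *Gimap1* shares up to 85 bases, *Gimap6* up to 55 and *Gimap3* up to 65.

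*Gimap9*, *Gimap4* and *Gimap7* varied differently. *Gimap9*, about whose function little is established, had the smallest ratio of highest to lowest library, 1.42, at 23.7, 28.3 and 26.3 CPM in control and at 20.0, 21.2 and 23.9 CPM in MaeaCsf1r-Cre libraries. The groups touched, with 1 MaeaCsf1r-Cre library above the lowest control, and the log2 fold change was -0.26 (standard error 0.15, 95% interval -0.61 to 0.09). *Gimap4*, which promotes the death of T cells, was at 3.88, 3.36 and 9.26 CPM in control and at 3.59, 4.19 and 11.4 CPM in MaeaCsf1r-Cre libraries. The 2 libraries numbered 3 were the high ones in both groups, and the log2 fold change was 0.14 (standard error 0.46, 95% interval -0.91 to 1.20). Leaving out control replicate 1, control replicate 2 or MaeaCsf1r-Cre replicate 3 turned its sign, to -0.0066, -0.089 and -0.30. *Gimap7*, whose protein can speed the GTP hydrolysis of other GIMAP proteins, was at 2.03, 4.24 and 1.40 CPM in control and at 1.64, 2.22 and 1.78 CPM in MaeaCsf1r-Cre libraries. These values overlapped fully, and behind them stood 48 to 168 reads per library. On the log2 scale the change was -0.23 (standard error 0.31, 95% interval -0.96 to 0.50), and it became 0.089 without control replicate 2.

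With Benjamini-Hochberg adjustment over all 12955 genes, limma called 0 of the 8 members at an adjusted p under 0.05, and the members' adjusted p ranged from 0.967 to 0.981. Over all genes it called 0.00772%, which is 1 gene, *BC023719*, which is no member and is named because of that call. Without adjustment 1 member, *Gimap3*, was lower at p under 0.05, against 3.19% of all genes, and 0 members were higher. In the fit with the replicate block, which compares libraries of the same number, 0 members were called as well and their adjusted p ranged from 0.218 to 0.754. The share of all genes called was again 0.00772%. Without adjustment 5 members were lower at p under 0.05 in that fit, against 10.8% of all genes. They were *Gimap5*, *Gimap1*, *Gimap8*, *Gimap6* and *Gimap3*, in this order of p, and their limma adjusted p under the block were 0.218, 0.239, 0.264, 0.266 and 0.266. The 95% intervals of these 5 under the block lay below 0, that of *Gimap5* from -0.87 to -0.26 and that of *Gimap1* from -0.91 to -0.21. *Gimap5* ranked 180 of all 12955 genes by p in that fit, the first of the family. Among these 5, *Gimap1*, *Gimap5*, *Gimap6* and *Gimap8* varied together over the libraries (Pearson's r of 0.914 to 0.985). The count of 5 is therefore not one of independent genes.

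The means of 7 of the 8 members were lower in MaeaCsf1r-Cre HSCs, against 60.9% of all genes, a share that became 49.97% after rescaling by median ratios, 46.9% after quantile normalization and 47.0% after a correction for transcript length. The count of members stayed at 7 under each of these rescalings. The median log2 fold change of the family was -0.56, beside -0.058 over all genes tested, and after the length correction it was -0.49 beside 0.015. Lower in all 3 same-numbered pairs were 5 members, *Gimap1*, *Gimap3*, *Gimap5*, *Gimap8* and *Gimap9*, and 23.5% of all genes. The groups did not overlap, with MaeaCsf1r-Cre lower, for 2 members and for 6.06% of all genes. Without control replicate 1 that count was 5 and the share of all genes 20.6%, and without MaeaCsf1r-Cre replicate 3 it was 4 and 17.6%. For 5 members, *Gimap1*, *Gimap5*, *Gimap6*, *Gimap8* and *Gimap9*, the library numbered 1 was the lowest in both groups, as it was for 28.7% of all genes. Without MaeaCsf1r-Cre replicate 1 the family median was -0.24.

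**Figure D2:**
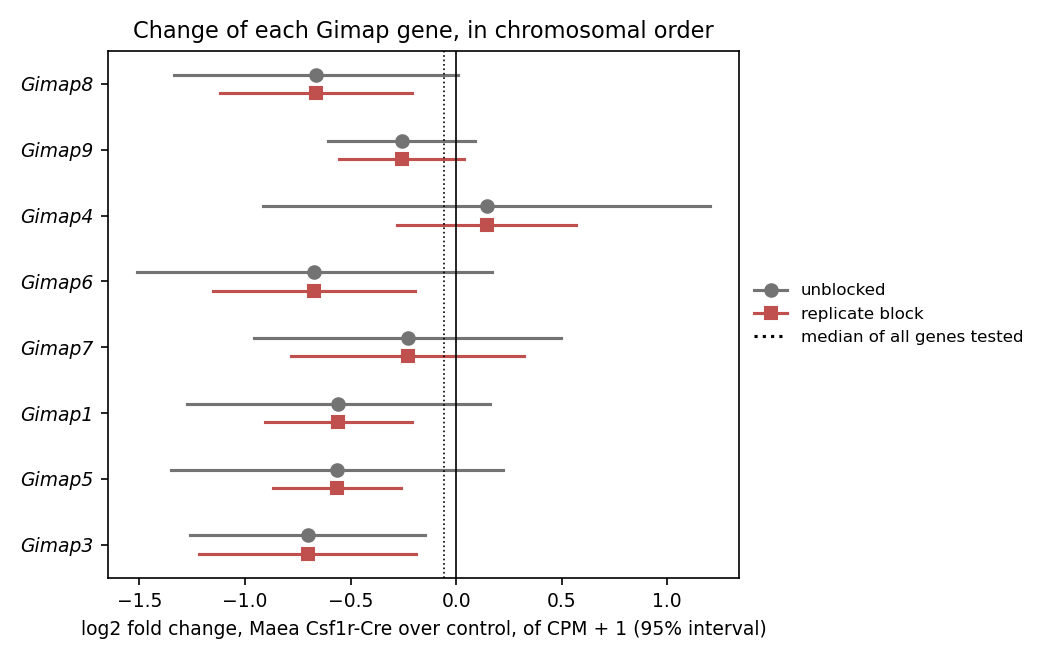
Log2 fold change of log2(CPM + 1) for each Gimap gene in chromosomal order, MaeaCsf1r-Cre over control, with 95% intervals from limma without (grey circles) and with (red squares) the replicate block. The dotted line is the median of all genes tested, -0.058. The estimates are the same in both fits and the intervals of 5 genes lie below 0 with the block, against that of *Gimap3* alone without it.

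Per kilobase of exon, the levels of the 8 genes in control HSCs spanned 37.3-fold. *Gimap6* stood first at 41.1 ± 12.3 CPM per kb and *Gimap1* next at 37.9 ± 10.6 CPM per kb (SD, n = 3), and they did not differ beyond their spread. *Gimap9* followed at 15.9 ± 1.41 CPM per kb and *Gimap5* at 9.59 ± 3.49 CPM per kb (SD, n = 3). *Gimap9* ranked above *Gimap5* per length in 6 of 6 libraries, while its CPM was the higher of both only in MaeaCsf1r-Cre replicate 1. *Gimap8* at 3.09 ± 0.417 and *Gimap4* at 2.99 ± 1.78 CPM per kb overlapped, as did *Gimap3* at 1.45 ± 0.394 and *Gimap7* at 1.10 ± 0.641 CPM per kb (SD, n = 3). The median gene tested had 5.89 CPM per kb in control, so 4 members lay above it and 4 below, with *Gimap6* at the 91.0th and *Gimap7* at the 14.5th percentile.

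**Figure D3:**
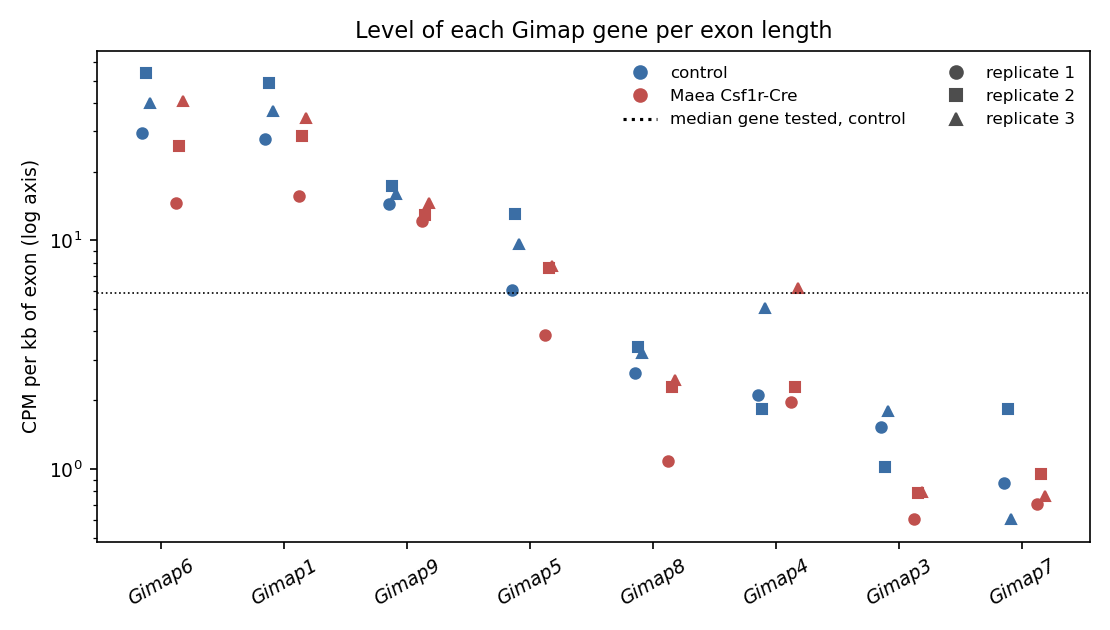
CPM per kilobase of exon on a log axis for each Gimap gene, ordered by the control mean, with 3 control (blue) and 3 MaeaCsf1r-Cre (red) libraries per gene and marker shapes for the replicate number. The dotted line at 5.89 is the median gene tested in control. *Gimap6*, *Gimap1* and *Gimap9* lie above the line in every library, and *Gimap8*, *Gimap3* and *Gimap7* below it.

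The members that varied together were not all neighbours in the cluster. Across the 6 libraries the 6 pairs among *Gimap1*, *Gimap5*, *Gimap6* and *Gimap8* had a Pearson's r of 0.914 to 0.985 on log2(CPM + 1). After the group means had been taken out, these r were 0.893 to 0.978. Over all 28 pairs r ran from -0.547 to 0.985 with a median of 0.529. *Gimap4* and *Gimap7* had no r above 0.372 and 0.586 with other members, and the r between them was the lowest over the 6 libraries. With the group means taken out this order changed. *Gimap4* then reached 0.670 with *Gimap3*, and the lowest r was -0.815, between *Gimap3* and *Gimap7*. The r of *Gimap3* with *Gimap1*, *Gimap5*, *Gimap6* and *Gimap9* then lay between -0.172 and -0.00084. These r describe 6 libraries of 2 groups, the libraries share depth and replicate number, and the r carry no test. Variation of this shape was common in the table, since 8.94% of 12947 genes outside the family had an r above 0.9 with the mean log2 level of the members. That share was 10.3% with the group means taken out.

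**Figure D4:**
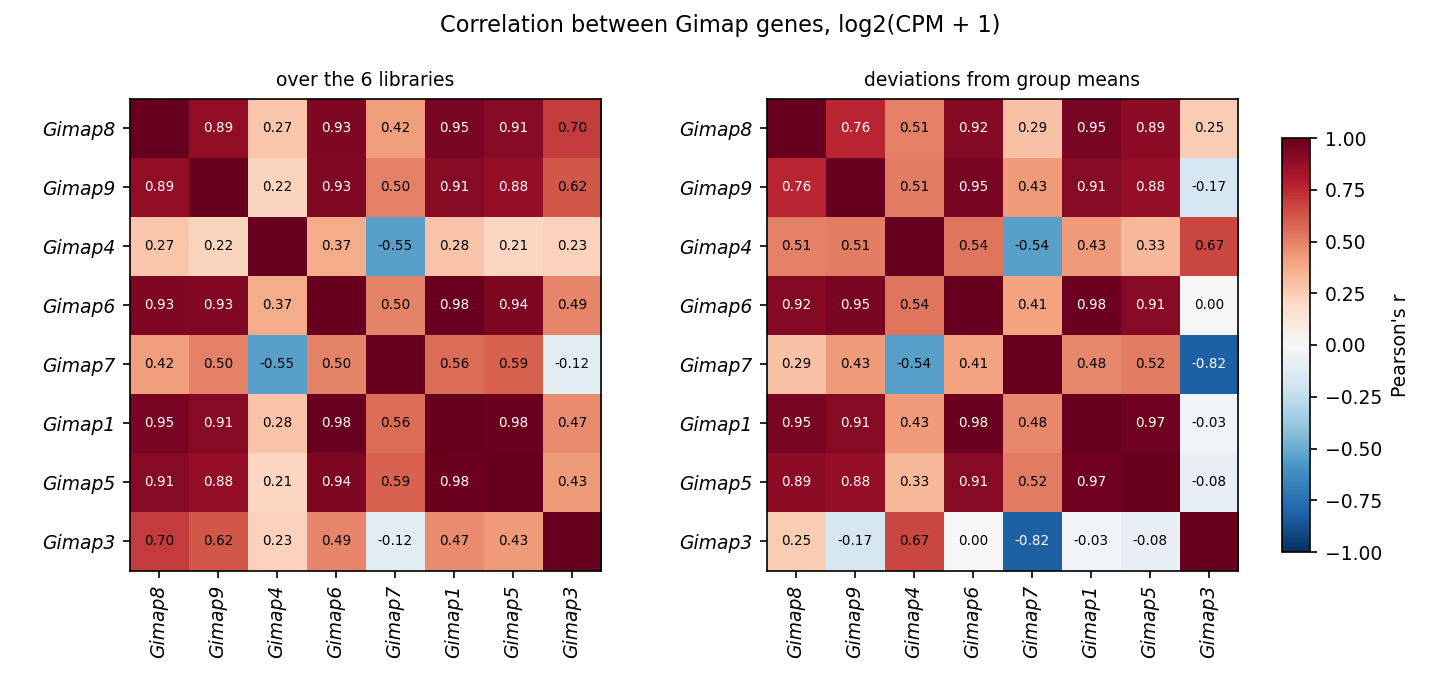
Pearson's r between the 8 Gimap genes on log2(CPM + 1), in chromosomal order, over the 6 libraries (left) and over deviations from the group means (right), with red for positive and blue for negative values. The block of dark red cells joins *Gimap1*, *Gimap5*, *Gimap6*, *Gimap8* and *Gimap9*, while on the right most cells of *Gimap3* and *Gimap7* are pale or blue.

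The 10 genes outside the family with the highest r to the family mean were *Plag1*, *Gm14719*, *Ccm2l*, *Aftph*, *Rtkn*, *Kcnh2*, *Rbbp9*, *RP24-178G20.2*, *Zfp354a* and *Zfp516*. *Plag1*, a zinc finger transcription factor, came first at 16.3, 26.7 and 24.0 CPM in control and 7.57, 14.7 and 20.4 CPM in MaeaCsf1r-Cre libraries. It had the same order of libraries within each group as the sum of the family. *Plag1* was picked by its r to the family mean, so this order is no separate result. *Ccm2l*, an adaptor protein of endothelial and blood cells, was at 4.004, 8.51 and 8.09 CPM in control and 0.903, 2.97 and 5.77 CPM in MaeaCsf1r-Cre libraries. With the group means taken out the first 10 were *Plag1*, *Pear1*, *Sh2d3c*, *Fzd8*, *Plscr3*, *Fgr*, *D330023K18Rik*, *Map3k3*, *Zfp354a* and *Sash1*.

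The genes around the cluster were compared because reads, domains and transcripts can be shared along a chromosome. Within 200 kb of the cluster 11 protein-coding genes were listed and 6 were tested. All 6 had a negative log2 fold change, as did 60.9% of all genes. The median of these neighbours was -0.12, beside -0.058 over all genes. After limma's adjustment 0 of the 6 were called in either fit, and 0 had an unadjusted p under 0.05. On the side of *Gimap3*, the membrane protein genes *Tmem176b* and *Tmem176a* were the closest tested neighbours. *Tmem176b* was at 161, 306 and 270.0 CPM in control and 129, 268 and 255 CPM in MaeaCsf1r-Cre libraries, with a log2 fold change of -0.20 (standard error 0.33). *Tmem176a* was at 65.8, 114 and 108 CPM in control and 48.6, 105 and 98.4 CPM in MaeaCsf1r-Cre libraries, with a log2 fold change of -0.22 (standard error 0.32). Both were lowest in the libraries numbered 1, as the family sum was. On the side of *Gimap8* the log2 fold changes were -0.017 for *AI854703*, -0.0032 for *Zfp775*, -0.24 for *Repin1* and -0.034 for *Lrrc61*.

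**Figure D5:**
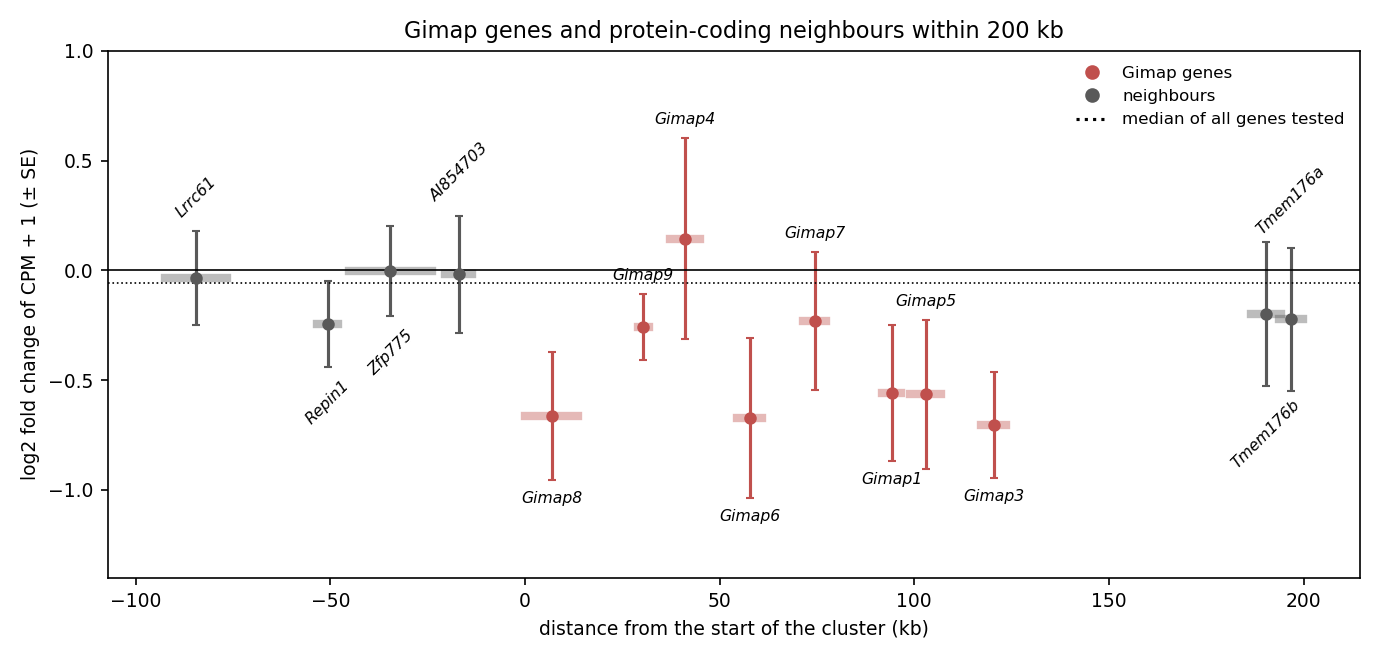
Log2 fold change of log2(CPM + 1), MaeaCsf1r-Cre over control, against distance in kb from the start of the Gimap cluster, for the 8 Gimap genes (red) and the 6 tested protein-coding neighbours (grey), with bars of ± 1 standard error and pale strips for the length of each gene. Of the genes shown, 5 of the Gimap genes lie below -0.5 and the neighbours lie between -0.24 and -0.0032.

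Other transcripts of the locus overlap the members. The antisense transcript *Gimap1os* shares 1107 of the 3073 exon bases of *Gimap1* (36.0%) and also covers the promoter shown above, and the library kit does not keep the strand. Reads of *Gimap1* and *Gimap1os* therefore cannot be told apart in the shared part. *Gimap1os* was at 5.27, 12.3 and 7.64 CPM in control and 2.76, 6.77 and 7.24 CPM in MaeaCsf1r-Cre libraries, with a log2 fold change of -0.53 (standard error 0.38). The read-through gene *Gm28053* shares 81 exon bases with *Gimap7*, 198 with *Gimap1* and 153 with *Gimap5*, and was at 0.541 to 1.75 CPM.

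Among 11 genes that GIMAP proteins bind or act with, all were tested and 0 were called in either fit. Their median log2 fold change was -0.0070, with 6 of 11 negative, beside -0.058 and 60.9% over all genes. The heat shock protein gene *Hspa8*, whose product and MCL1 were found with GIMAP5, was at 1230, 1290.3 and 1613 CPM in control and 2036, 1539 and 1566 CPM in MaeaCsf1r-Cre libraries. *Mcl1*, a survival factor of HSCs, was at 156, 175 and 161 CPM in control and 135, 150.4 and 145 CPM in MaeaCsf1r-Cre libraries. Every MaeaCsf1r-Cre value of *Mcl1* lay below every control value, with a log2 fold change of -0.19 (adjusted p = 0.967 from limma, 0.369 with the block). *Bak1*, which opens the mitochondrial membrane in apoptosis, was at 10.1, 6.56 and 6.22 CPM in control and 13.5, 10.1 and 9.90 CPM in MaeaCsf1r-Cre libraries. Its log2 fold change was 0.51 (adjusted p = 0.967, and 0.266 with the block). At an unadjusted p under 0.05 there were 0 of the 11 genes without the block, and with it 1 lower (*Bcl2*) and 2 higher (*Bak1* and *Bax*). Over all 12955 genes 1805 were at that p with the block, of which 1402 (10.8% of all genes) were lower. Without the block they were 517, of which 413 (3.19% of all genes) were lower. *Gabarapl2*, the partner of GIMAP6, was at 54.5 to 57.2 CPM in control and 45.2 to 56.6 CPM in MaeaCsf1r-Cre libraries.

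Genes of lymphoid priming, the early lymphoid program within stem and progenitor cells, were set beside the family because GIMAP genes mark lymphocytes. Of 26 genes 19 were tested, and limma called 0 in either fit. At an unadjusted p under 0.05, 4 were lower without and 6 with the block, against 3.19% and 10.8% of all genes. The median log2 fold change of the list was -0.27, with 15 of 19 negative, beside -0.058 and 60.9% over all genes. *Dntt*, the terminal transferase of antigen receptor joining, was at 24.7, 17.9 and 5.85 CPM in control and 1.26, 1.13 and 4.89 CPM in MaeaCsf1r-Cre libraries. *Satb1*, a chromatin organiser of lymphoid cells, was at 18.7, 21.8 and 12.005 CPM in control and 2.84, 5.23 and 10.6 CPM in MaeaCsf1r-Cre libraries. *Flt3*, the cytokine receptor of multipotent progenitors, was at 67.2, 120.5 and 34.4 CPM in control and 15.7, 33.7 and 37.0 CPM in MaeaCsf1r-Cre libraries. *Dntt* and *Satb1* did not overlap between groups and had log2 fold changes of -2.29 and -1.46 (adjusted p = 0.967 from limma for both, 0.221 and 0.232 with the block), while *Flt3* overlapped at -1.24. The summed list was 1481, 1744 and 1577 CPM in control and 1169, 1261 and 1569 CPM in MaeaCsf1r-Cre libraries, the same order of libraries within each group as the family sum. Its largest gene was *Lmo2*, at 430.1, 620.5 and 629.7 CPM in control and 368, 449 and 573 CPM in MaeaCsf1r-Cre libraries. *Dntt*, *Satb1* and *Flt3* did not share that order in control. They were lowest in control replicate 3, whereas the family sum was lowest in control replicate 1. In MaeaCsf1r-Cre libraries *Satb1* and *Flt3* shared it and *Dntt* did not.

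Most defining T cell markers were at or near 0. Of 24 T cell genes 4 were tested, 6 were listed at 0 in all 6 libraries (*Bcl11b*, *Cd2*, *Cd3g*, *Cd8a*, *Cd8b1* and *Themis*), and *Cd3e* reached 0.0303 CPM in 1 library. *Cd4* was an exception, at 1.55, 3.16 and 1.99 CPM in control and at 0.525, 0.272 and 1.58 CPM in MaeaCsf1r-Cre libraries, which is close to the CPM of *Gimap3* and *Gimap7*. The summed T cell list was 25.9 to 37.3 CPM in control and 18.8 to 35.9 CPM in MaeaCsf1r-Cre libraries, most of it from *Lat* and *Lck*. Of 16 B cell genes 15 were listed and 2 tested, and *Igll1*, *Ms4a1* and *Pax5* were listed at 0 throughout. The summed B cell list was 34.8 to 57.2 CPM in control and 14.3 to 28.0 CPM in MaeaCsf1r-Cre libraries, without overlap. The immunoglobulin gene *Ighm*, at 7.51 to 29.5 and 0.279 to 2.26 CPM, made up that gap, whereas *Cd79b* was at 16.3 to 27.2 and 12.9 to 23.7 CPM. Of 12 genes of natural killer and innate lymphoid cells 3 were tested, and *Gzma* and *Ncr1* were listed at 0. The summed list was 56.4 to 78.9 and 58.9 to 98.9 CPM, most of it from *Nkg7* at 38.7 to 62.2 and 39.1 to 85.4 CPM. Limma called 0 genes of these 3 lists in either fit. At an unadjusted p under 0.05 there was 1 T cell gene, *Cd4*, and 1 B cell gene, *Ighm*, both lower in both fits. Of all genes 3.19% were lower at that p without the block and 10.8% with it.

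Myeloid and endothelial markers differed between libraries as well. The summed list of 16 macrophage genes was 75.5 to 170 CPM in control and 42.2 to 119 CPM in MaeaCsf1r-Cre libraries. Its largest gene was *Slc40a1*, at 76.5, 28.4 and 37.0 CPM in control and 70.9, 27.2 and 53.3 CPM in MaeaCsf1r-Cre libraries. The log2 fold change of *Slc40a1* was 0.12, whereas 10 of the 11 tested genes of the list were negative, against 60.9% of all genes. *C1qb*, a complement gene of macrophages, was at 3.79 to 8.98 CPM in control and 0 to 0.474 CPM in MaeaCsf1r-Cre libraries. Of the 11 macrophage genes tested 0 were called in either fit. At an unadjusted p under 0.05, 6 were lower without and 8 with the block, against 3.19% and 10.8% of all genes. The list of 10 granulocyte genes summed to 76.8 to 309 CPM and 76.0 to 164 CPM. The list of 16 endothelial genes summed to 342, 397 and 597 CPM in control and 185, 308 and 718 CPM in MaeaCsf1r-Cre libraries. Its highest library was thus replicate 3 in both groups, as for *Gimap4*. *Tie1*, *Esam* and *Egfl7* led the list in control replicate 2, at 113, 98.5 and 73.4 CPM, and *Robo4* and *Tek* were also on the HSC list. The genes of the list differed in order. *Egfl7* was at 61.2, 73.4 and 60.5 CPM in control and 53.2, 57.0 and 78.9 CPM in MaeaCsf1r-Cre libraries. Limma called 0 of the 15 endothelial genes tested and 0 of the 4 granulocyte genes tested in either fit. At an unadjusted p under 0.05 with the block 2 endothelial genes and 1 granulocyte gene were lower, against 10.8% of all genes. *Stab2*, a receptor of sinusoidal endothelium picked here after its values were seen, was at 10.1, 0.202 and 41.3 CPM in control and 0.427, 0.362 and 66.2 CPM in MaeaCsf1r-Cre libraries. The summed list of 15 HSC genes was 1553, 2549 and 2152 CPM in control and 1085, 1634 and 2025 CPM in MaeaCsf1r-Cre libraries, the same order of libraries within each group as the family sum. Of these 15 HSC genes 13 had a negative log2 fold change, against 60.9% of all genes, and limma called 0 of the 15 in either fit. The median of the list was -0.38, beside -0.058 over all genes. At an unadjusted p under 0.05 there were 0 without the block, and 8 lower and 1 higher with it. With the block 1805 of all genes were at that p, of which 1402 (10.8% of all genes) were lower. The part of these marker levels, of *Cd48* and of the difference in depth, in the values of the Gimap genes was not tested.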

How the data were processed

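The deposited values are CPM to which the authors added 0.0001, which was subtracted. Per the labels and methods, libraries were made with SMART-Seq v4 and Nextera XT, and reads went through Trim Galore, STAR 2.5.3a (mm10), Ensembl release 83 and Partek Flow. Depth came from the steps between low values, of which 74.9 to 76.8% lay within 0.05 reads of a whole read, so counts were not recovered. The labels do not say how mice were assigned to libraries, and p-values measure the spread between these libraries.

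Tests used limma 3.58.1 (R 4.3.3) with a mean-variance trend on log2(CPM + 1), for genes that reached a CPM of 1 in 3 or more libraries. They were two-sided, and p was adjusted by Benjamini-Hochberg across those 12955 genes (threshold 0.05). On this scale fold changes of low genes are understated. Replicate numbers come from the labels, and same-numbered libraries deviated together (r = 0.627, 0.523 and 0.397 across genes), so a fit with the replicate block was also made. Lengths and positions come from a GENCODE annotation of GRCm38 later than the authors' one, in which 44191 of 46959 symbols were found.

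The members and gene lists were chosen with earlier results of these data known. Named were the members, *Maea*, other Gimap rows, protein-coding neighbours within 200 kb, at most 3 tested genes of lowest p per list, and the 10 genes most like the family mean. Further list genes were named after their values were seen, and the values of 1 HSC list gene are not reported here. Alternatives were a pseudocount of 0.1, no filter, a CPM minimum of 10, median ratios, quantile normalization, no trend, the block, length correction (loess, span 0.5) with and without the block, each library left out and, chosen after seeing the data, both libraries numbered 1 left out. The procedure was tested on simulated data.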

Additional observations from a re-analysis of the deposited data

How the results depend on the processing

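Under all 16 alternatives limma called 0 members, and the family median stayed negative. It was -0.50 with median ratios and quantile normalization and -0.49 with the length correction. Leaving out each library in turn gave -0.74 to -0.24, the weakest value without MaeaCsf1r-Cre replicate 1. The number of members without overlap was 2 to 5 in the same runs, with 5 without control replicate 1 and 4 without MaeaCsf1r-Cre replicate 3, while the share of all genes rose from 6.06% to between 8.71 and 20.6%. It was 5 without both libraries numbered 1 (24.8% of all genes), and 0 with a CPM minimum of 10, which left 4 members (5.31% of all genes). With median ratios, quantile normalization and the length correction it was 3 each time, beside 4.44, 4.42 and 3.89% of all genes. The replicate block left the family median at -0.56 and changed no call, and the members' smallest adjusted p under it was 0.218. Of the members' own values under these alternatives 120 kept their direction and 4 turned. *Gimap4* turned to -0.0066 without control replicate 1, to -0.089 without control replicate 2 and to -0.30 without MaeaCsf1r-Cre replicate 3, and its highest value was 0.53. *Gimap7* turned to 0.089 without control replicate 2, and its lowest value was -0.47. The other 6 members stayed negative throughout. The cause of these shifts was not tested. Over all genes 517 had an unadjusted p under 0.05 in the unblocked fit, 1805 with the block, 1754 with the block and length correction, 1142 without a filter, 302 with a CPM minimum of 10 and 241 to 964 with 1 library left out, and the adjusted calls were 0 to 2. With 3 libraries a group, few residual degrees of freedom (4, and 2 with the block) limit all intervals. The intervals therefore also rest on the spread of other genes, from which limma's moderated fit adds degrees of freedom. For *Gimap3* and *Gimap7* the number of reads limits them as well.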
